A study of Mus musculus with 32 samples.

Results

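The genes described here are *Gal*, *Phex*, *Ptprz1*, *Kcnk1*, *C430049E01Rik* and *Pdpn*, 6 of the 31053 genes in the count tables. They were selected on measured values, as genes that led a group of osteocyte-like cells in an earlier look at the same counts, so their higher level in bone-forming cells is a description and was not tested. The cells, called BMSC-OBs, were stromal cells of bone marrow driven toward osteoblasts in culture. They came from femurs of Diversity Outbred (DO) mice, an outbred population descended from several inbred founder strains, so that every mouse has its own genotype. All cultures were treated alike: they reached confluence within 3 days and then spent 10 days in medium with ascorbic acid, beta-glycerophosphate and dexamethasone. Cells of 77 mice were loaded as 16 pools of 5 mice or, in 3 pools, 4 mice, and the pool is the replicate throughout. The mice inside a pool were not separated here, so a value of a pool is a mean over its mice weighted by their cells.

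Osteocytes are osteoblasts that become buried in the matrix they deposit. They sense load, shape mineral and release proteins that act on phosphate handling by the kidney. *Phex* encodes a cell-surface endopeptidase of osteoblasts and osteocytes whose loss causes X-linked hypophosphatemia. *Pdpn* encodes podoplanin, a mucin-type membrane protein known as an early marker of osteocyte process formation and also made by lymphatic endothelium, fibroblastic stromal cells and some macrophages. *Ptprz1* encodes a receptor tyrosine phosphatase best known from glia, with pleiotrophin and midkine as ligands. *Gal* encodes the neuropeptide galanin, and *Kcnk1* encodes the two-pore-domain potassium channel TWIK-1. *C430049E01Rik* carries the name *Ccdc194*, a protein-coding gene with a predicted coiled coil, in GENCODE M21 and RefSeq, and no role is given for it here.

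In GRCm38 the genes lie on 5 chromosomes. *Gal* (ENSMUSG00000024907) is at chr19:3409915-3414544 on the minus strand and *Phex* (ENSMUSG00000057457) at chrX:157162075-157415312 on the minus strand. *Ptprz1* (ENSMUSG00000068748) is at chr6:22875502-23052916 on the plus strand and *Pdpn* (ENSMUSG00000028583) at chr4:143267431-143299564 on the minus strand. The remaining pair shares chromosome 8, with *Kcnk1* (ENSMUSG00000033998) at chr8:125995170-126030685 on the plus strand and *C430049E01Rik* (ENSMUSG00000108900) at chr8:71520120-71525711 on the minus strand. Annotated genes overlap *Phex* on both strands, and *Kcnk1* and *C430049E01Rik* each have an annotated gene on the opposite strand. The strand setting of the counting was not given in the sources used here.

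The sequences below are the 250 bases before the RefSeq start (GRCm38.p6) of the 4 members with the highest ratios between *Ibsp*-high cells of at least 8% and of 3 to 5% *Ibsp*, shown 5′ to 3′ on the gene's own strand. Capitals mark matches in either orientation to a searched motif.
Gal, chr19:3414545-3414794, minus strand: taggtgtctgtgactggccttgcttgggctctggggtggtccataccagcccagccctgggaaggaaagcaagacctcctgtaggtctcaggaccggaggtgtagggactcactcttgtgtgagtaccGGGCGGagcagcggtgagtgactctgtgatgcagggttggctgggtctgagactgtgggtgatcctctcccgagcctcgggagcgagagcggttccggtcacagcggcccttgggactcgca
Kcnk1, chr8:125994852-125995101, plus strand: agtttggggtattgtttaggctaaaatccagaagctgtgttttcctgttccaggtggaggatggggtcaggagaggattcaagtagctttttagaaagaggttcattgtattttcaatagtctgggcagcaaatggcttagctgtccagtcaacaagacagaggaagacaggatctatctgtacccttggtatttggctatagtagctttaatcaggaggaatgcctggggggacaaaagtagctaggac
C430049E01Rik, chr8:71525726-71525975, minus strand: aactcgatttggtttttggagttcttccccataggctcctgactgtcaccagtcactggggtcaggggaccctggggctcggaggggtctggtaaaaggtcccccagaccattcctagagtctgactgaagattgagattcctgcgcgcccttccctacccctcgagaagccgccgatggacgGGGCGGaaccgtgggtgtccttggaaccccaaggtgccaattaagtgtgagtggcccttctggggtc
Phex, chrX:157415287-157415536, minus strand: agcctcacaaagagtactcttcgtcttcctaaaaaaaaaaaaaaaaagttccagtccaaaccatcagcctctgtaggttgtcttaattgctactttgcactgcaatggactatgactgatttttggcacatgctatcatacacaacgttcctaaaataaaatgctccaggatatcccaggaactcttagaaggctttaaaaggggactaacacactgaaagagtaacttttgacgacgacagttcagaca

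The motifs searched on both strands were TGTGGT (the RUNX core), TGANTCA (AP-1), GGGCGG (the GC box), TATAAA (the TATA box) and AGGTCA (a nuclear receptor half-site). These letters have no overlap with each other in the windows. A GC box was found 122 bases before the start of *Gal*, 67 before *C430049E01Rik*, and 143 and 45 before *Ptprz1*, and 32.7% of the 32851 promoters in the table hold one. *Pdpn* had an AGGTCA 34 bases before its start, against 14.0% of all promoters. None of the 6 windows held TGTGGT, which 14.0% of all promoters hold, and the windows of *Kcnk1* and *Phex* held none of the 5 motifs. A match or its absence in this window says nothing about binding of a factor.

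Of 107853 barcodes, 83906 were kept after filters and removal of called doublets, with 53990642 to 100777353 unique molecular identifiers (UMIs) per pool. *Ibsp* encodes bone sialoprotein, a matrix protein of mineralizing cells, and cells in which it made up at least 3% of UMIs are called *Ibsp*-high. There were 29256 of them, between 485 and 3495 per pool, and 34260 other mesenchymal cells. Their median depth was 15520.5 and 9506 UMIs, but *Ibsp*-high cells of pool 13 had a median of only 2816 UMIs, and only 28.6% of them reached 4000. Pools shared few barcodes (1.43% of distinct barcodes occurred in more than 1 pool). Levels are given as UMIs per 10,000 UMIs of the group in a pool (mean ± SD, n = 16 pools).

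The label osteocyte-like was checked against osteocyte markers. *Ibsp*-high cells carried *Dmp1* at 5.77 ± 2.03, *Mepe* at 5.08 ± 2.89, *Sost* at 1.89 ± 0.987 and *Irx5* at 1.47 ± 0.234 UMIs per 10,000, and all 4 were higher than in other mesenchymal cells in 16 of 16 pools. *Fgf23*, a hormone of mature osteocytes, gave 6 UMIs in all *Ibsp*-high cells together. A UMI of *Dmp1* was found in 70.7% of these cells, of *Mepe* in 45.8% and of *Sost* in 27.8%, whereas the osteoblast gene *Bglap* was found in 95.4%. These shares are over all *Ibsp*-high cells together and not means over pools, so pools with more cells weigh more. They were not thinned and depend on depth, and the group is named by its rule. Summed over the 8 leukocyte markers, all of which were detected, the level had a median of 0.548 and a highest pool of 2.12 in *Ibsp*-high cells, against 0.801 and 2.74 in other mesenchymal cells. Granulocyte markers summed to 0.736 ± 1.02 in *Ibsp*-high and 0.565 ± 0.647 in other mesenchymal cells, and macrophage markers to 0.647 ± 0.497 and 0.839 ± 0.609. Other mesenchymal cells were limited on these 3 lists by their gate and *Ibsp*-high cells were not. The levels are therefore not a like comparison. Of the *Ibsp*-high cells, 27 had at least 0.4% leukocyte markers. The groups differed more in other lists. Adipogenic lineage markers summed to 1.57 ± 1.08 in *Ibsp*-high and 44.9 ± 18.7 in other mesenchymal cells, contractile markers to 4.05 ± 1.37 and 38.8 ± 8.87, glial markers to 0.0428 ± 0.0164 and 0.737 ± 0.324, cycling markers to 0.720 ± 0.534 and 1.84 ± 0.667, and B cell markers to 0.659 ± 0.819 and 5.89 ± 11.9, with a highest pool of 48.0. The part of these cells in the results was not tested.

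Levels of 5 of the 6 genes were higher in *Ibsp*-high cells than in other mesenchymal cells in every pool, and for these 5 the lowest *Ibsp*-high pool lay above the highest pool of other mesenchymal cells. That was also so for 2.48% of the 13530 genes tested. The selection of the genes used this contrast, so nothing is read from the count. *Pdpn* did not share the pattern.

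*Gal* ranged over the pools from 0.605 to 3.62 UMIs per 10,000 in *Ibsp*-high cells, with a median of 1.71. In other mesenchymal cells it ranged from 0.0161 to 0.257, with a median of 0.0935. The galanin level was thus 3.92 to 38.4 times higher in *Ibsp*-high cells of the same pool, with a median of 18.4. *Kcnk1* ranged from 1.49 to 2.71 in *Ibsp*-high cells (median 2.11) and from 0.0930 to 0.359 in the others (median 0.147). The ratio within a pool for this channel had a median of 13.5 and ranged from 4.21 to 21.9. The channel varied less between pools than *Gal* did, and neither gene's groups overlapped.

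*Phex* ranged from 1.301 to 4.45 in *Ibsp*-high cells (median 2.55) and from 0.121 to 0.693 in other mesenchymal cells (median 0.311). *Ptprz1* ranged from 2.62 to 4.72 in *Ibsp*-high cells (median 3.42) and from 0.274 to 1.23 in the others (median 0.508). For both cell-surface proteins the groups did not overlap, with median ratios within a pool of 8.30 and 5.60. *C430049E01Rik* ranged from 0.385 to 0.825 in *Ibsp*-high cells (median 0.550) and from 0.0192 to 0.118 in the others (median 0.0462), a median ratio of 10.5. The smallest ratio of all 5 genes was that of pool 13, the pool of shallow cells.

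*Pdpn* ranged from 0.0719 to 0.375 in *Ibsp*-high cells (median 0.130) and from 0.0384 to 0.409 in other mesenchymal cells (median 0.114), so the groups overlapped over nearly their whole range. Podoplanin was higher in *Ibsp*-high cells in 12 of 16 pools, and lower in pools 1, 2, 6 and 18. Per 10,000 UMIs, 21.1% of the 13530 genes tested had a higher mean in *Ibsp*-high cells. The ratio of mean levels of *Pdpn* stood above that of 87.4% of these genes. *Pdpn* was chosen on these counts, so this position is a description. Leukocyte-gated cells had more, at 0.383 ± 0.223, and exceeded *Ibsp*-high cells of their pool in 15 of 16 pools.

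**Figure D1:**
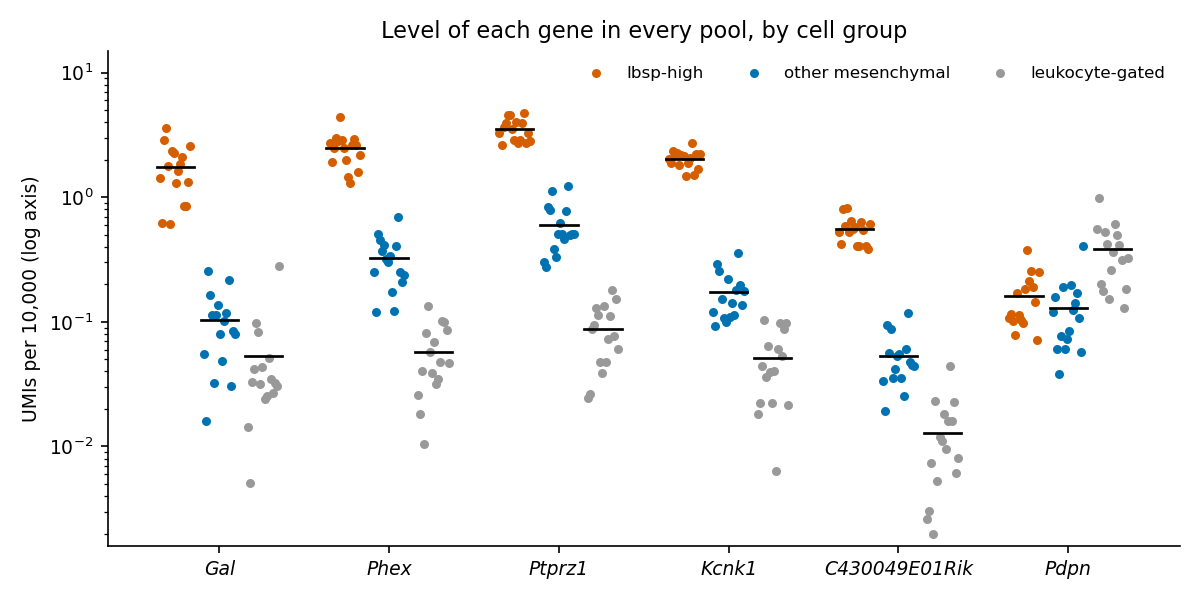
Level of each gene in each of 16 pools, in UMIs per 10,000 on a log axis, for *Ibsp*-high, other mesenchymal and leukocyte-gated cells. Each point is a pool and each black line the mean over pools, and a pool at 0 is drawn at the bottom of the axis. The *Ibsp*-high points of 5 genes stand apart from the other groups, and those of *Pdpn* overlap both.

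A fit across all genes, edgeR's quasi-likelihood test on sums per pool with the pool as a block, called 81.3% of 13530 genes at an adjusted p of at most 0.05, 38.6% higher and 42.7% lower in *Ibsp*-high cells. With a background this wide, a call alone distinguishes few genes. The scaling matters for size. Per 10,000 UMIs the median gene had a log2 ratio of -0.49 in *Ibsp*-high over other mesenchymal cells, and the trimmed mean of M values (TMM) scaling moved the median to -0.03. Without TMM, calls in the higher direction fell from 47.5% to 18.4% of all calls. On the TMM scale the log2 differences were 4.66 for *Gal*, 4.12 for *Kcnk1*, 3.91 for *C430049E01Rik*, 3.47 for *Phex*, 3.09 for *Ptprz1* and 0.86 for *Pdpn*, with SEs of 0.12 to 0.19. Without TMM they were 4.21, 3.66, 3.46, 3.01, 2.63 and 0.41 in the same order, so each kept its direction on both scales.

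The share of cells with a UMI was compared after thinning each cell to 4000 UMIs, which left out 7397 *Ibsp*-high and 10860 other mesenchymal cells that were too shallow. *Gal* was then found in 28.8% ± 7.94 of *Ibsp*-high cells and 3.32% ± 1.89 of other mesenchymal cells, and *Kcnk1* in 46.2% ± 5.38 and 4.95% ± 1.88. *Ptprz1* was found in 60.8% ± 7.96 and 12.5% ± 5.13, *Phex* in 45.2% ± 8.50 and 8.80% ± 3.61, and *C430049E01Rik* in 18.2% ± 3.93 and 1.88% ± 0.943. Leukocyte-gated cells were used as the comparison for free RNA, although what their counts of these 5 genes come from was not tested. They gave 0.343% for *C430049E01Rik* to 2.86% for *Ptprz1*. These shares came from 7188 leukocyte-gated cells, and 5343 others were too shallow to be thinned. The median depth of all leukocyte-gated cells was 4607 UMIs. For *Gal* the leukocyte-gated share was 1.61% ± 1.94, with 8.37% in pool 18, and the medians over pools were 3.06% in other mesenchymal and 1.09% in leukocyte-gated cells. The medians were 4.85% and 1.11% for *Kcnk1*, 8.01% and 1.49% for *Phex*, 11.2% and 2.38% for *Ptprz1*, and 1.69% and 0.236% for *C430049E01Rik*. The leukocyte-gated share was the higher one for *Gal* in pools 6, 14 and 18, for *Kcnk1* in pool 17 and for *C430049E01Rik* in pool 11, so low shares of these 3 genes in other mesenchymal cells were not above the comparison in every pool. *Pdpn* was found in 5.51% ± 2.14 of *Ibsp*-high cells, 3.69% ± 2.52 of other mesenchymal cells and 9.56% ± 5.03 of leukocyte-gated cells. Without thinning, the shares in *Ibsp*-high cells ran from 13.0% for *Pdpn* to 74.8% for *Ptprz1*.

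Most *Ibsp*-high cells carried only some of the genes at this depth. None of the 6 was found in 16.3% ± 5.73 of thinned *Ibsp*-high cells, a single one in 23.3% ± 3.24 and a pair in 23.4% ± 3.93. The rest carried 3 or more, with all 6 in 144 of 21859 cells. In other mesenchymal cells, 76.3% ± 6.48 carried none.

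The 3% limit cut through a continuous range. Cells just outside it, with 2.5 to 3% *Ibsp* (3427 cells), had *Gal* at 0.336 ± 0.174, *Kcnk1* at 0.651 ± 0.178 and *Phex* at 0.993 ± 0.432 UMIs per 10,000. Cells just inside it, with 3 to 3.5% (3624 cells), had 0.427 ± 0.263, 0.759 ± 0.183 and 1.098 ± 0.458, which differed by less than 1 SD over pools. *Ptprz1* went from 1.98 ± 0.512 to 2.18 ± 0.612, *C430049E01Rik* from 0.184 ± 0.0839 to 0.205 ± 0.0971 and *Pdpn* from 0.142 ± 0.0941 to 0.117 ± 0.0925. All means but that of *Pdpn* were higher inside the limit. Both sides came from the same pools and differences within a pool were not computed, so a small step at the limit was not tested.

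Along the *Ibsp* share, with *Ibsp* itself taken out of the totals, 5 genes climbed through all 9 bins. The members were chosen on osteocyte-like cells of these counts, so the climb is a description. The share of all genes that climb in this way was not computed. *Gal* rose from 0.0279 ± 0.0133 below 0.3% *Ibsp* to 0.468 ± 0.268 at 3 to 4% and 6.12 ± 4.14 at 12% or more. *Kcnk1* went from 0.0243 ± 0.0138 to 0.890 ± 0.190 and 4.46 ± 0.812 over the same bins, and *Phex* from 0.107 ± 0.0677 to 1.25 ± 0.470 and 5.14 ± 1.23. *Ptprz1* reached 1.03 ± 0.331 already at 1 to 2% *Ibsp*, and ended at 6.15 ± 1.12. *Pdpn* went from 0.148 ± 0.104 in the lowest bin to 0.102 ± 0.0770 at 1 to 2% and 0.246 ± 0.130 in the highest, all within overlapping SDs. Beside the members, *Dmp1*, *Mepe*, *Sost* and *Col1a1* also climbed through every bin, *Dmp1* from 0.137 ± 0.128 to 8.27 ± 3.04, while *Bglap* and *Spp1* did not. Median depth moved between bins, from 11297.5 UMIs in the lowest to 3692.5 at 3 to 4% and 20783.5 in the highest.

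**Figure D2:**
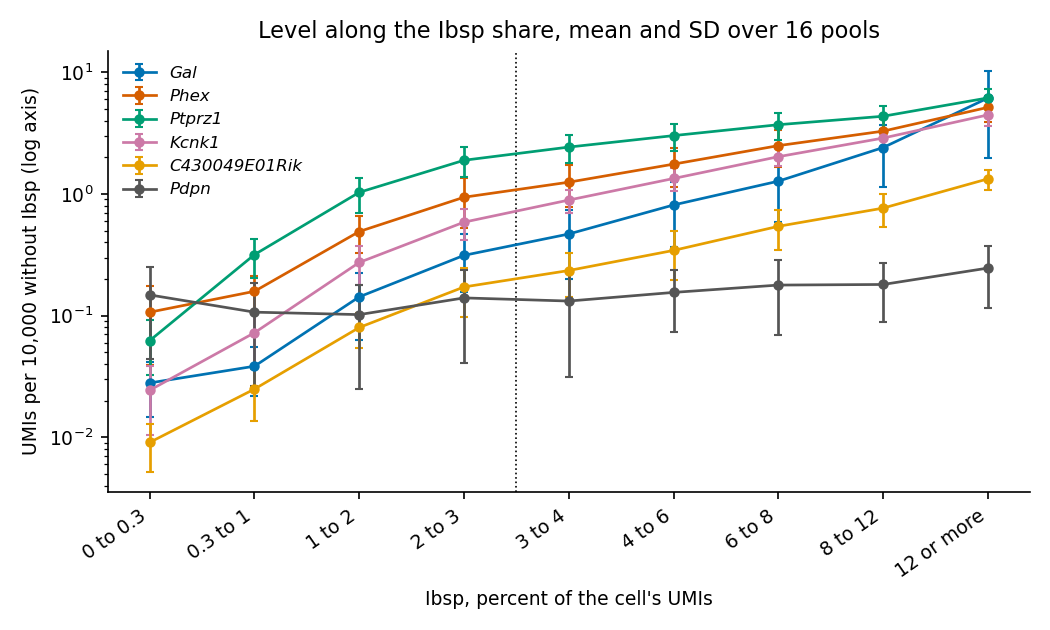
Mean level of each gene in 9 bins of the *Ibsp* share of a cell, in UMIs per 10,000 without *Ibsp* on a log axis, with SD over 16 pools and a dotted line at the 3% limit. All genes but *Pdpn* climb on both sides of the limit, and *Gal* climbs most above it, from 0.468 to 6.12.

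Within *Ibsp*-high cells, those with at least 8% *Ibsp* (9182 cells) were set against those with 3 to 5% (11245 cells) in each pool. This split was chosen after the data were seen and within the cells the members were chosen on, so it is a description, and median depth moved with it, from 5740 to 20335.5 UMIs. Before the log2 ratio was taken, 0.05 UMIs per 10,000 were added to each level. This makes the ratios of genes at low levels smaller, also of those just above the limit of 0.1. Of 7194 genes at a level of at least 0.1 per 10,000, 0.473% had a median log2 ratio over pools of 1 or more. Among them were 4 of the 6 members. *Gal* had a ratio of 2.38 (range over pools 1.36 to 3.45), *Kcnk1* 1.74 (1.29 to 2.05), *C430049E01Rik* 1.66 (0.65 to 2.47) and *Phex* 1.497 (0.75 to 2.38). *Ptprz1* came to 0.98 (0.46 to 1.33), and *Pdpn* to 0.36, with 11 of 16 pools higher. *Pdpn* ranked 426 from the highest of the 7194 genes. The osteocyte gene *Mepe* had 2.20, *Sost* 1.54, *Ackr3* 1.06, *Dmp1* 0.92 and *Irx5* 0.60. *Kcnk2*, which was not among the 7194 genes, had -0.34 and was higher in 4 of 16 pools. The osteoblast genes went in both directions, with *Bglap* at 0.77, *Col1a1* at 0.76, *Spp1* at -0.14 and *Sp7*, the transcription factor osterix, at -0.56 and lower in all 16 pools. Among cells of at least 4000 UMIs the ratios were 2.36 for *Gal*, 1.76 for *Kcnk1*, 1.69 for *C430049E01Rik*, 1.55 for *Phex*, 1.00 for *Ptprz1* and 0.49 for *Pdpn*.

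Among other mesenchymal cells, all members but *Pdpn* were highest in cells with 1 to 3% *Ibsp* and none of the other gates, at 0.745 ± 0.285 UMIs per 10,000 for *Phex*, 1.52 ± 0.397 for *Ptprz1*, 0.448 ± 0.134 for *Kcnk1* and 0.132 ± 0.0442 for *C430049E01Rik*. Cells of that kind held 2932 of the 3771 *Gal* UMIs of other mesenchymal cells, at 0.239 ± 0.125 UMIs per 10,000 against 0.0318 ± 0.0151 in those under 1%, and were higher in 16 of 16 pools. At lower levels, the genes differed between the gated groups. *Phex* was at 0.239 ± 0.1099 in adipogenic-lineage-gated cells (*Adipoq*, *Lpl*, *Cxcl12*, *Lepr*, *Cebpa* and *Hp*; 6363 cells), at 0.0519 ± 0.0436 in contractile cells and at 0.104 ± 0.0339 in ungated cells under 1% *Ibsp*. The adipogenic-lineage level of *Phex* was above the contractile one in 15 of 16 pools and above the ungated one in 16 of 16. The adipogenic-lineage, contractile and cycling gates took cells of any *Ibsp* share below 3%, so these groups were not matched on *Ibsp*. *Ptprz1* was at 0.391 ± 0.264 in cycling cells (15 pools) and only 0.0541 ± 0.0323 in adipogenic-lineage-gated cells. *Kcnk1*, *Gal* and *C430049E01Rik* were each at most 0.0857 in adipogenic-lineage, contractile, cycling, macrophage and granulocyte-gated cells.

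*Pdpn* had its higher levels outside the bone-forming cells. Macrophage-gated cells had 0.356 ± 0.176 UMIs per 10,000, above *Ibsp*-high cells in 15 of 16 pools, and granulocyte-gated cells had 0.0260 ± 0.0359 in 11 pools. Droplets that met no gate, 7787 in all with a median of 3150 UMIs, had 0.648 ± 0.445. Among mesenchymal cells, those under 1% *Ibsp* without other gates had 0.196 ± 0.125, and adipogenic-lineage-gated cells only 0.0159 ± 0.0138.

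Co-detection asks whether genes occur in the same cells more often than their shares within a pool would give by chance. The members were chosen together from one group of cells in these counts, so their ratios are a description, and pairs in which neither gene is a member were not computed. In *Ibsp*-high cells thinned to 4000 UMIs, all 15 pairs were found together more often than expected, with mean ratios of observed to expected cells of 1.15 to 1.98 and a median of 1.36. For the 10 pairs without *Pdpn* the ratio was above 1 in all 16 pools. *Phex* with *C430049E01Rik* had 1.64 ± 0.313 (2861 cells), and *Gal* with *C430049E01Rik* 1.503 ± 0.164 (1754 cells). The lowest ratios were those of *Ptprz1* with *Kcnk1*, at 1.15 ± 0.0806, and with *Gal*, at 1.15 ± 0.0951. A ratio cannot exceed 1 divided by the larger share of the pair. *Ptprz1*, found in 60.8% of these cells, therefore had less room than *C430049E01Rik*, found in 18.2%. The order of the ratios is thus not an order of closeness, and ratios of cell groups with unlike shares are not on a like scale. Taking expected counts within pool and *Ibsp* bin lowered the 15 ratios to 1.08 to 1.83 with a median of 1.26, an alternative added after the data were seen. *Gal* with *Phex* and with *Ptprz1* then had lowest pools of 0.967 and 0.997. In other mesenchymal cells, which range from cells without *Ibsp* to nearly 3%, the 10 pairs without *Pdpn* had mean ratios of 3.11 to 8.18, on 51 to 876 cells a pair. Expected counts were small there, down to 0.120 cells in a pool for *Gal* with *C430049E01Rik*, whose ratio of 3.28 ± 3.03 was above 1 in 12 of 16 pools.

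*Pdpn*, with few cells, had mean ratios above 1 with the other members, but 4 of its 5 pairs fell below 1 in some pools. It was found with *C430049E01Rik* in 419 cells at a ratio of 1.98 ± 0.776, above 1 in 15 of 16 pools and with a lowest pool of 0.594, and as few as 3.37 cells were expected in a pool. With *Phex* the ratio was 1.48 ± 0.299 and with *Ptprz1* 1.36 ± 0.170, each above 1 in 15 of 16 pools, with *Gal* 1.38 ± 0.291 in 14 of 16, and with *Kcnk1* 1.43 ± 0.233 in 16 of 16. With the osteocyte gene *Dmp1* its ratio was 1.26 ± 0.134, above 1 in 15 of 16 pools. With *Mepe*, which encodes another matrix protein of osteocytes, it was 0.73 ± 0.129 and below 1 in 16 of 16 pools, in 302 cells against 399.6 expected. The other 5 members had ratios of 1.15 to 1.36 with *Mepe*, and of 1.11 to 1.23 with *Dmp1*, the latter above 1 in 16 of 16 pools. Within *Ibsp* bins the ratio of *Pdpn* with *Mepe* was 0.70 ± 0.126, again below 1 in every pool. With *Sp7*, *Gal* had the lowest ratio of the members, 0.88 ± 0.0645, below 1 in all 16 pools.

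**Figure D3:**
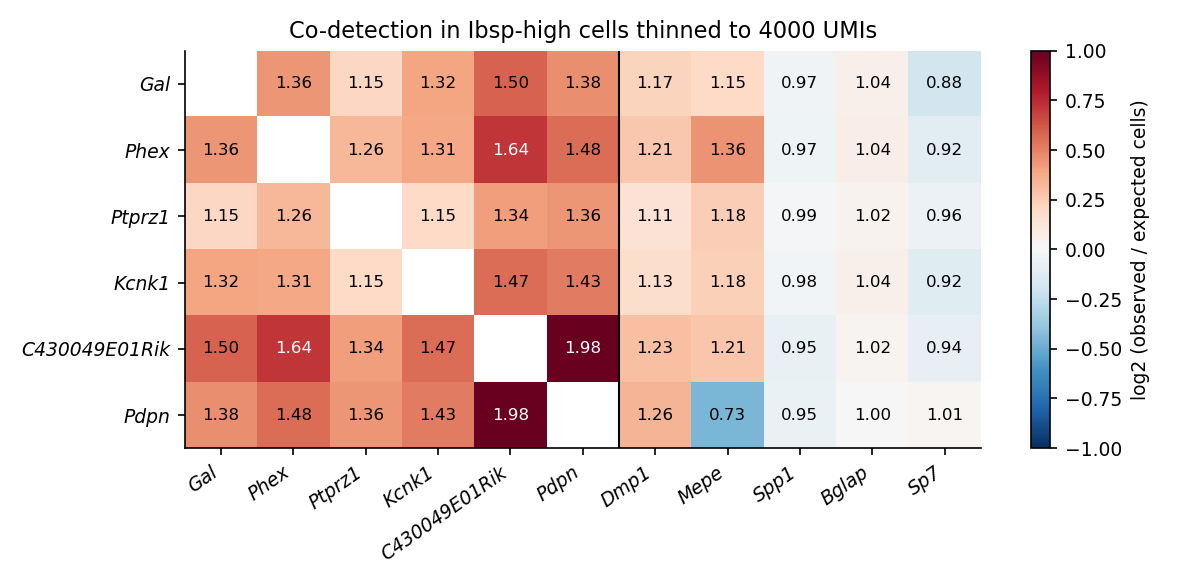
Mean over 16 pools of observed over expected numbers of *Ibsp*-high cells, thinned to 4000 UMIs, with a UMI of both genes. Rows are the 6 genes, columns the same 6 and 5 osteoblast or osteocyte genes, numbers are the ratios and colour their log2. All member pairs exceed 1, and *Pdpn* with *Mepe* stands at 0.73.

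The genes most like each member were ranked by the mean over pools of Pearson's r of log2(UMI + 1) across thinned *Ibsp*-high cells, among 3976 genes found in at least 10% of them. These r values describe sparse counts of cells that share a library, and have no p. Over these genes and the 6 members the median of the mean r was -0.0036. The members were chosen together from cells of these counts, and *Ibsp* defines the cells used. Members and *Ibsp* in the lists below are therefore a description. For *Gal* the top 5 were *Ibsp* (0.312), *Col1a2* (0.271), *Phex* (0.262), *Sparc* (0.254) and *Col1a1* (0.252), and for *Kcnk1* they were *Ibsp* (0.338), *Sparc* (0.315), *Col1a2* (0.309), *Col1a1* (0.290) and *Phex* (0.257). *Phex* and *Ptprz1* led each other's lists, at 0.386. After *Ptprz1*, the list of *Phex* held *Col1a2* (0.363), *Col1a1* (0.332), *Sost* (0.317) and *Plpp1* (0.316), and after *Phex* that of *Ptprz1* held *Plpp1* (0.321), *Car12* (0.291), *Col1a2* (0.278) and *Ackr3* (0.271). *C430049E01Rik* was most like *Plpp1* (0.293), *Phex* (0.293), *Bambi* (0.256), *Ptprz1* (0.254) and *Ackr3* (0.235). *Pdpn* was most like *Gchfr* (0.204), *Plpp1* (0.179), *Spns2* (0.167), *Bambi* (0.154) and *Ptprz1* (0.149).

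The members differed in how much they varied between pools of *Ibsp*-high cells. *Gal* had a coefficient of variation (CV) of 48.6%, from 0.605 in pool 6 to 3.62 in pool 4, where counting error alone would give 1.68%. *Pdpn* had 50.7%, *Phex* 30.7%, *C430049E01Rik* 24.2%, *Ptprz1* 20.4% and *Kcnk1* 15.5%. A wide spread was not particular to members, since *Mepe* had 56.8%, *Sost* 52.1%, *Dmp1* 35.2%, *Bglap* 34.9% and *Spp1* 32.5%. By edgeR's tagwise dispersion, *Gal* ranked 126 and *Pdpn* 205 from the most variable of 6943 genes at 0.1 per 10,000 or more, and *Kcnk1* ranked 1826. The CV from the dispersion was 49.1% for *Gal*, against 15.4% for the median gene. Pools differ in the mice they hold, in depth and in the makeup of their *Ibsp*-high cells, and these cannot be told apart here.

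**Figure D4:**
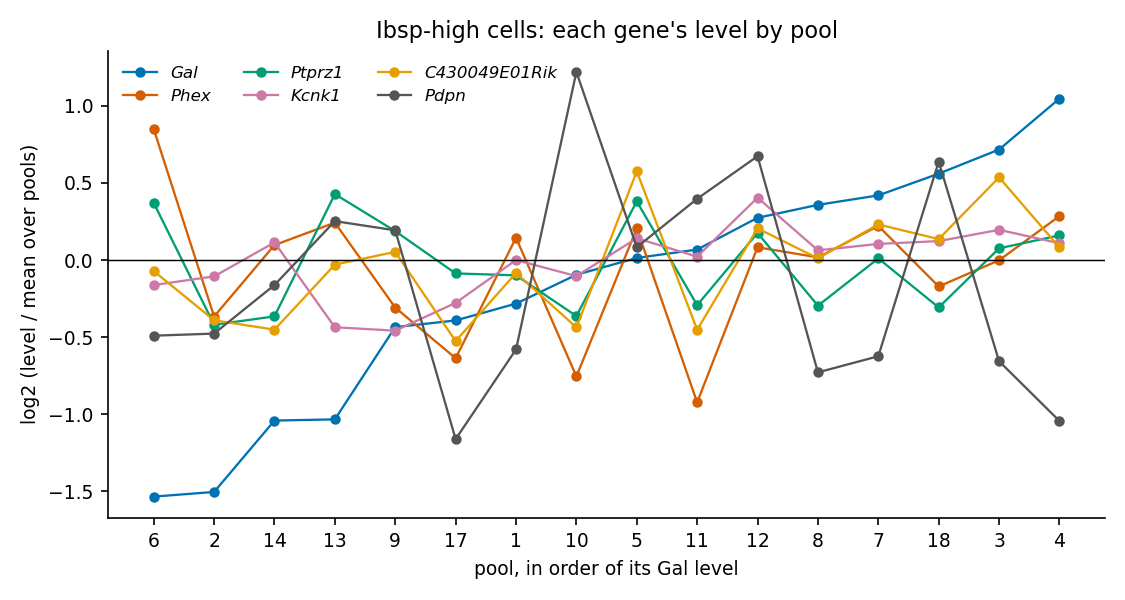
Level of each gene in *Ibsp*-high cells of each pool, as log2 of its level over its mean over pools, with pools in order of *Gal*. *Gal* spans the range from 0.605 to 3.62 UMIs per 10,000, *Kcnk1* stays closest to its mean, and *Pdpn* peaks in pool 10.

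Across the 16 pools, the level of one member in *Ibsp*-high cells was set against that of another. Of 15 pairs on the log2(CPM + 10) scale (CPM, UMIs scaled to a total of 1e6 in the group), none passed an adjusted p of 0.05 by Pearson's r or Spearman's rho (two-sided permutation tests, Benjamini-Hochberg over 15 pairs), and 5 by each measure had an unadjusted p under 0.05. *Phex* and *Ptprz1* had r = 0.63 (permutation p = 0.00884, adjusted p = 0.109) and rho = 0.58 (permutation p = 0.0198, adjusted p = 0.0780), with r = 0.52 without the 2 pools farthest from the median of *Phex*. *Ptprz1* and *C430049E01Rik* had r = 0.59 (permutation p = 0.0162, adjusted p = 0.109) and rho = 0.50 (permutation p = 0.0493, adjusted p = 0.148), and r = 0.56 without the farthest 2 pools. *Gal* and *Kcnk1* had r = 0.57 (permutation p = 0.0219, adjusted p = 0.109) and rho = 0.66 (permutation p = 0.00656, adjusted p = 0.0780), and r = 0.60 without them. *Gal* and *Phex*, which were found in the same cells more often than expected, had r = -0.11 and rho = 0.00 over pools (permutation p = 0.683 and 0.996, adjusted p = 0.931 and 0.996), and r = 0.12 without the 2 farthest pools. None of 12 relations of the members with the share of *Ibsp*-high cells or their median depth had an unadjusted permutation p under 0.05, and the lowest adjusted p was 0.786 by Pearson's r and 0.945 by Spearman's rho.

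Genes that work with the members were counted in the fit of *Ibsp*-high against other mesenchymal cells. As the background, 81.3% of all 13530 genes were called, 38.6% higher and 42.7% lower. Without TMM, 2215 genes were called higher and 9826 lower. The share of all genes called in the same direction on both scales is not given here. Of 10 osteocyte genes, 9 were tested, 8 were higher and *Kcnk2* was lower. *Dmp1*, *Mepe*, *Sost*, *Irx5*, *Ackr3*, *Fbln7* and *Dkk1* were higher with and without TMM, and *Cd44* only with it. Of 11 phosphate and mineralization genes, 10 were tested, 7 were higher and 2 lower on both scales, and *Enpp1* was lower only without TMM. *Alpl*, tissue-nonspecific alkaline phosphatase, was at 15.4 ± 1.44 against 8.95 ± 2.48 UMIs per 10,000, and *Phospho1*, a phosphatase of matrix vesicles, at 0.0200 ± 0.00703 against 0.00510 ± 0.00335. *Ank*, which encodes a transporter of pyrophosphate, was lower, at 0.227 ± 0.133 against 0.561 ± 0.310. All 10 osteoblast genes were higher with TMM, and 8 of them without it, where *Sp7* was not called and *Runx2* turned to a call lower.

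Of the galanin system *Galr2* alone had enough counts to be tested, and the partners of *Ptprz1* went in both directions. Of the galanin receptors, *Galr1* had no UMI and *Galr3* had 11 in *Ibsp*-high cells, while *Galr2* was at 0.00856 ± 0.00331 against 0.0318 ± 0.0130 in other mesenchymal cells (log2 difference -1.42, SE 0.13, edgeR adjusted p = 2.47e-09), lower in 16 of 16 pools. The ligands *Ptn* (pleiotrophin) and *Mdk* (midkine) were at 0.0347 ± 0.0379 and 0.0602 ± 0.0324 in *Ibsp*-high cells, against 0.505 ± 0.340 and 0.189 ± 0.127 in the others, which also held more adipogenic lineage, contractile and glial marker RNA (44.9, 38.8 and 0.737 against 1.57, 4.05 and 0.0428 UMIs per 10,000). The part of those markers' cells in the lower ligand levels was not tested. *Il34*, another ligand, and *Tnc*, the matrix protein tenascin C, were also lower, *Il34* with a log2 difference of -3.86 (SE 0.14, edgeR adjusted p = 5.78e-15). Those 4 genes were lower on both scales. Of the 10 ligands and partners, 9 were tested and 4 were higher, of which *Nrcam*, *Ncam1* and *Fyn* were higher on both scales and *Ctnnb1* only with TMM. *Git1* was lower only without it.

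*Kcnk1* was set beside its own family. Of 13 other two-pore channel genes, 5 were tested. *Kcnk6* was higher on both scales, at 0.146 ± 0.0226 against 0.0501 ± 0.0141 (log2 difference 2.02, SE 0.10, edgeR adjusted p = 3.10e-13), as was *Kcnk12* at levels near 0.006. *Kcnk5* was higher only with TMM, *Kcnk13* was lower only without it, and *Kcnk2* was lower on both scales, at 0.0774 ± 0.0251 against 0.317 ± 0.135. Of 7 podoplanin partners, 6 were tested, and *Ezr*, *Rdx* and *Lgals8* were lower on both scales. *Msn*, *Cd44* and *Cd9* were higher with TMM. Without it none of the 6 was higher, and *Cd9* turned to a call lower, from a log2 difference of 0.26 to -0.19. *Clec1b*, the podoplanin receptor of platelets, gave 7 UMIs in *Ibsp*-high cells.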

How the data were processed

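Single-cell RNA-seq was run on BMSC-OBs of DO mice in 16 pools, each sequenced in 2 runs (32 samples). The deposited values are UMI counts per gene and barcode, whole numbers without normalization, which the authors made with Cell Ranger (version 5.0.0, mm10, the GRCm38 build, per the submitters' processing notes). The annotation release was not given in the sources used here, and coordinates came from GENCODE M21 by gene identifier. The members and all lists were chosen with earlier results of these data known, and the gates were placed after distributions had been seen.

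Run HGYVNCCX2 was used, since 98.2% of its barcodes were also called in the other run of the pool. Cells had 400 to 6200 genes and at most 10% mitochondrial, 20% *Rpl* and 15% *Rps* UMIs. Doublets were called by score in each pool (5003 droplets, 5.63% of those passing). Of 695 droplets with at least 2 *Xist* and 2 Y-linked UMIs, 47.5% were among them. *Ibsp*-high cells had at least 3% *Ibsp*. Other mesenchymal cells had under 0.2% leukocyte, 0.3% macrophage, 1% granulocyte and 0.2% endothelial markers and at least 0.25% mesenchymal markers. Leukocyte-gated cells had at least 0.4% leukocyte markers. Groups of fewer than 20 cells in a pool were left out.

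Counts were summed per pool and group and fitted by the quasi-likelihood test of edgeR 4.0.16 (R 4.3.3), with filterByExpr, TMM factors, the pool as a block and Benjamini-Hochberg adjustment. Printed SEs are the absolute log2 difference divided by the square root of F. Both sums of a pool come from the same library and mice, though from different cells, which is the source of the pairing. Their deviations from the group means correlated at 0.33 to 0.75 (median 0.56), and each of 16 pools correlated best with itself. Tested on simulated data (13530 genes), the fit recovered 82% of 50 genes changed 1.5-fold and all of those changed 2-fold or more. The simulated pools shared the same means, and only a few genes were changed, equally up and down. It therefore does not cover pool effects, or scaling where most genes differ as in these data. Pool relations used 100000 permutations. Cells were thinned without replacement by numpy 2.4.6. DESeq2 1.42.0, other scalings, filters, *Ibsp* limits, the other run and further settings were alternatives. The named genes were the 6 members, the lists, and for each member its 5 most similar genes across cells. Precision is limited by depth per cell (UMIs per pool are given in the report). The p-values of the fit weigh the difference within pools against how much it varied from pool to pool. Those of the permutations measure association across pools. Assignment of cells to mice was not used here.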

Additional observations from a re-analysis of the deposited data

How the results depend on the processing

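The number of genes called between *Ibsp*-high and other mesenchymal cells was 11003, and it ranged from 8570 (cells thinned before summing) to 12716 (no low-count filter) under the other settings, which included DESeq2 with 10908. Without the replicate block for the pool pairing it was 9539, and 9531 of those were shared with the fit that had the block. The log2 differences of the members kept their direction under every setting run. From an *Ibsp* limit of 5% to one of 2%, *Kcnk1* went from 3.26 to 4.91, *Gal* from 3.93 to 5.33, *Ptprz1* from 2.43 to 3.82, *C430049E01Rik* from 3.23 to 4.62 and *Phex* from 2.91 to 4.02, the whole range over settings for these 5. *Pdpn* ranged from 0.41 (no TMM, chosen after the data were seen) to 1.12 (thinned cells). The median share of *Ibsp*-high cells with a UMI over the 6 genes was 37.0% at 4000 UMIs, 23.7% when cells were thinned to 2000 and 52.1% without thinning, so shares hold for the stated depth only. The median co-detection ratio stayed between 1.26 and 1.47. No pair of members passed the adjusted threshold across pools under any setting, with 0.0700 (*Ibsp* limit of 2%) to 0.119 as the lowest adjusted p by Pearson's r. The pool relations use levels that were not thinned, so the settings of 2000 UMIs and of no thinning could not change them. Without pool 13, the shallow pool, *Gal* had a log2 difference of 4.80 and 10961 genes were called. Low levels of *Pdpn*, *Galr2* and the rarer channels are limited by depth, and the doublet call caught 330 of 695 droplets with *Xist* and Y-linked UMIs.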

Other observations

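Of the 34 genes whose median log2 ratio between at least 8% and 3 to 5% *Ibsp* was 1 or more, the 15 highest held 4 of the members and *Mepe* and *Sost*. The other 9 were *Pcolce2* at 1.67, *Bmp8b* at 1.64, *Comp* at 1.52, *Pgam2* at 1.42, *Rgs5* at 1.31, *Car12* at 1.302, *Chmp4c* at 1.29, *Sgca* at 1.28 and *Gm19705* at 1.28, each higher in 16 of 16 pools. *Pcolce2* encodes an enhancer of procollagen processing, *Comp* a cartilage matrix protein, *Pgam2* a muscle enzyme of glycolysis and *Sgca* a muscle sarcoglycan. These genes were named after their values had been seen.

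In the 72 endothelial-gated cells *Gal* came to 2.02 UMIs per 10,000, but 210 of its 224 UMIs lay in 1 droplet of pool 10. The remaining 71 cells held 14 UMIs. In pool 18, leukocyte-gated cells carried *Gal* at 0.283 UMIs per 10,000, against a median of 0.0327 over the 16 pools.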
